A study of Mus musculus with 29 samples.

Results

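The cell cycle and mitosis genes described here are 40 genes chosen by name from what they do: 12 of the G1 phase and its control (cyclins D and E, their kinases, Rb1, E2f1 and the inhibitors Cdkn1b and Cdkn1c), 8 of DNA replication (Mcm2 to Mcm7, Pcna and Rrm2) and 20 of mitosis. They were read from one-colour Agilent arrays by the RefSeq accession of each probe, with the brightest probe per gene, and all 40 had a probe among the 20145 genes named on the array. Of these, 34 passed the filter (well above background on at least 3 of 29 arrays) and were tested together with 15626 genes in all: 11 of G1, 8 of replication and 15 of mitosis. Ccne2, Cdc25c, Aurkb, Bub1, Cenpf and Top2a did not pass and are given by their levels only. A gene could also pass through the group in which it is high, so counts over the 34 describe them and are no count over all 40. The members were also chosen with earlier results of these data known. Their counts beside the shares of all genes are therefore descriptive and no independent comparison.

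The largest changes were those of a group of mitosis genes in TdTomato cells 4 days after the injection: Birc5 was 370.3-fold above day 0, Nusap1 85.2-fold, Bub1b 52.9-fold, Kif20a 42.0-fold and Ccna2 38.1-fold. On the same arrays Mki67 was not called, Bub1 and Cdk1 were above background on 0 of 4 arrays, and Top2a was above it on 1 of 4. At day 1 the replication helicase genes Mcm2 to Mcm5 were lower in TdTomato cells, and at day 7 the G1 cyclin Ccnd1 was higher in both populations.

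Podocytes are the highly branched epithelial cells that cover the capillaries of the kidney glomerulus, and in the healthy adult they have left the cell cycle. D-type cyclins with Cdk4 and Cdk6 phosphorylate the retinoblastoma protein Rb1, which frees E2F factors to turn on the genes of DNA replication. Cyclins E, A and B with Cdk2 and Cdk1 then carry a cell through S phase and into mitosis, and the inhibitors Cdkn1b (p27) and Cdkn1c (p57), the latter a classical marker of mature podocytes, hold these kinases in check. Injured podocytes are known to re-enter the cycle in part, and divide poorly.

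The study used Pod-hCD25T/G mice, males of 8 weeks on the C57BL/6J background, whose podocytes carried either EGFP or TdTomato. The treatment was removal of 1 kidney followed by an injection of LMB2 at 25 ng per g body weight, an immunotoxin in which an antibody fragment against human CD25 is joined to a bacterial toxin that stops protein synthesis. The labels do not say which reporter goes with human CD25; as the study is generally known, the TdTomato cells have it and the EGFP cells lack it. The labels do not say whether the mice of day 0, taken before the injection, had also lost 1 kidney. Cells of 16 mice were sorted into both populations before the injection (day 0) and 1, 4 and 7 days after it. This gave 4, 3, 4 and 4 EGFP arrays and 4, 4, 4 and 2 TdTomato arrays at days 0, 1, 4 and 7. For 13 mice both populations were on arrays, so the arrays of 1 mouse are paired. The sort takes cells that survive with their reporter, and in bulk samples fewer cells of a type and less RNA per cell cannot be told apart.

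Of the spots on an array, 48.2% to 65.5% were well above background and 0 were saturated. The number of arrays limits the precision. Podocyte markers other than Cdkn1c were above background on every array (9 of 9 genes), with a log2 summed signal of 10.62 to 11.37 in TdTomato cells at day 0 and 9.79 to 10.35 at day 4. Of 12 markers of glomerular endothelium, 3 were called higher in TdTomato cells at day 4, where 21.4% of all genes were, and 7 at day 7, where 10.9% were. Their log2 summed signal was 3.48 to 4.47 at day 0, 2.89 to 6.02 at day 4 and 5.80 to 6.60 at day 7. Against EGFP cells of day 4, 7 of the 12 were called higher and 1 lower, beside 21% and 38.6% of all genes. Against EGFP cells of day 7, 8 were higher and 0 lower, beside 6.19% and 0.8% of all genes. Parietal epithelial markers (4 of 9 higher and 1 lower at day 4) summed to 0.78 to 1.53 at day 0 and 2.09 to 3.32 at day 4. Myeloid sums were 5.26 to 5.82 at day 0, 6.38 to 8.05 at day 1 and 5.52 to 6.85 at day 4, with 1 and 2 of 9 tested genes higher at days 1 and 4. Of the lymphocyte list 3 of 7 tested genes were higher and 1 lower at day 4, with sums of 1.90 to 3.07 at day 0 and 3.31 to 3.86 at day 4. The highest log2 difference from day 0 within this list was 8.45 at day 1, 8.96 at day 4 and 5.82 at day 7. The medians of the list were -0.11, 0.46 and 1.05. Over all genes 23.8% were higher at day 1, and 35.9% were lower at day 4. Mesangial sums were 1.86 to 2.80 at day 0 and 2.37 to 3.30 at day 4, and tubular sums 0.34 to 4.07 and 1.54 to 7.55. Fcgr3, Cd3g and Gp9 were on no array above background. The deposited value columns of both day 7 arrays of mouse MC221 do not match their scanner files. Some counts and gene values at day 7 are therefore also given without this mouse, which leaves 1 TdTomato array at day 7. In each fit without MC221 or without MC791, the spread of TdTomato cells at day 7 is taken from the other groups, and the lone array is assumed to vary as they do.

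Values below are log2 signals of a probe relative to the 75th percentile of its array, where 0 is that percentile. They can be compared between groups but not between genes. A gene is called when its limma p, adjusted by the Benjamini-Hochberg method over 15626 genes, is at most 0.05, and errors of differences are standard errors of the fit. Separate mice make up each group, so the spread is between animals. In TdTomato cells at day 4 the median of all genes was -0.29 (log2) against day 0, and at day 1 it was -0.13, so small falls there lie close to the shift of the whole array.

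In EGFP cells at day 1, 0 of 34 tested members were called (limma; 2 had an unadjusted p under 0.05), where 0.0256% of all genes were called higher and 0% lower. At day 4 Birc5 alone was called, higher, against 0.557% of all genes higher and 0.0384% lower. At day 7 Ccnd1, Cdk6, Mcm6 and Birc5 were called, all 4 higher (4 of 34 tested), while 5.34% of all genes were higher and 1.92% lower.

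In TdTomato cells at day 1, 9 of 34 members were called higher and 13 lower, with 23.8% of all genes higher and 27.9% lower. The share of members called higher was thus near that of all genes, and the share called lower was above it. At day 4, 14 were higher and 8 lower, against 21.4% and 35.9% of all genes. At day 7, 8 were higher and 1 lower, against 10.9% and 8.47%. Without MC221 the day 7 calls were 4 in EGFP and 7 in TdTomato cells, and without the TdTomato array of MC791 they were 6 in TdTomato cells. The direction split by role at day 4: of the mitosis members 10 of 15 tested were higher and 0 lower, of the replication members 3 of 8 higher and 2 lower, and of the G1 members 1 of 11 higher and 6 lower. The medians of the tested members at day 4 were 1.36 for mitosis, 0.20 for replication and -0.37 for G1 (log2 difference from day 0), beside -0.29 for all genes.

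**Figure D1:**
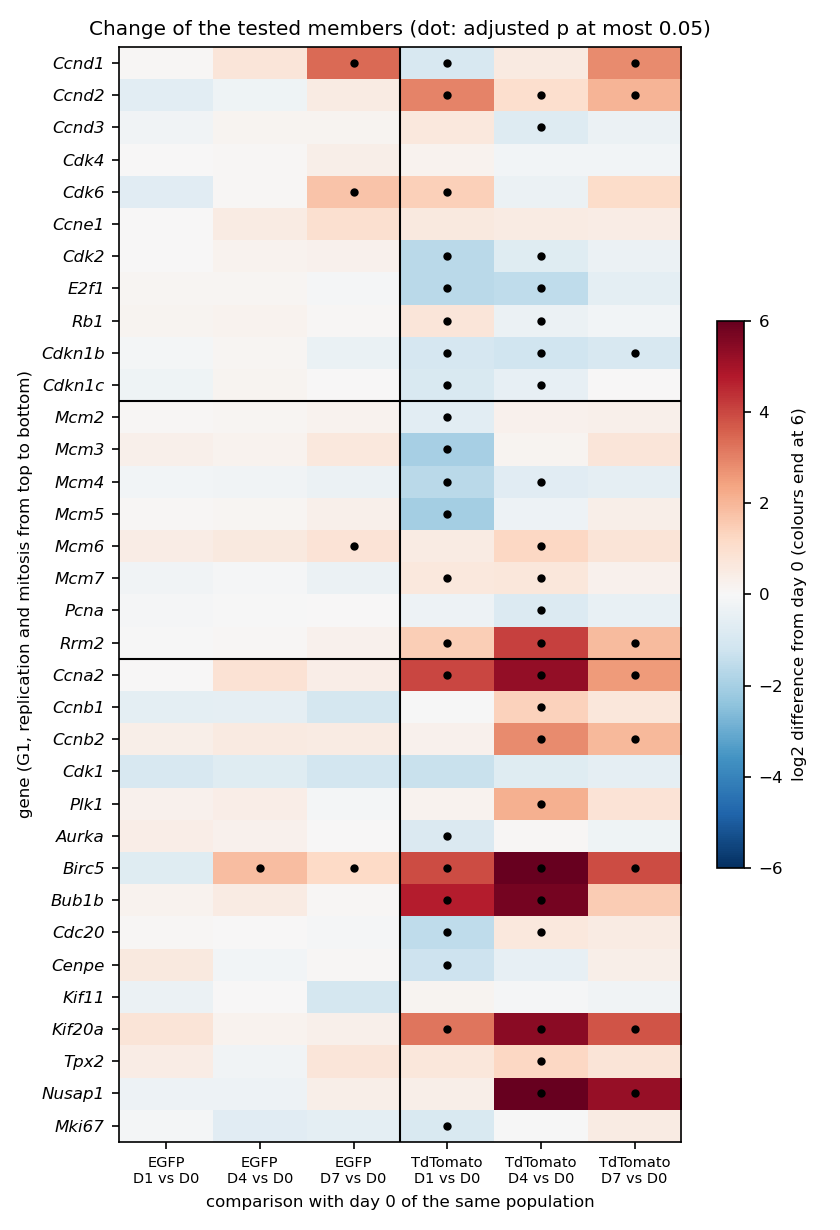
Log2 difference from day 0 of the 34 tested members (rows, by role) in EGFP and TdTomato cells at days 1, 4 and 7 (columns); a dot marks an adjusted p of at most 0.05, and colours end at 6. EGFP columns hold 5 dots, and TdTomato columns hold 22, 22 and 9 at days 1, 4 and 7, with the strongest reds among the mitosis genes at day 4.

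Between the populations of the same day, 0 of 34 members were called before the injection (limma; 0 had an unadjusted p under 0.05), as for all genes (0% higher and 0% lower; 74 of 15626 had an unadjusted p under 0.05). At day 1, 10 members were higher in TdTomato than in EGFP cells and 13 lower (all genes 23.7% and 25.6%), and at day 4, 14 were higher and 9 lower (all genes 21% and 38.6%). At day 7, 7 members were higher and 0 lower (all genes 6.19% and 0.8%): Birc5, Nusap1, Kif20a, Ccna2, Ccnb2, Plk1 and Mcm7. With the mouse as a fixed replicate block the paired comparison at day 7 called 12 members, 10 higher and 2 lower. At day 7 this pairing rests on mice MC221 and MC791 only. On their 2 slides the 7 members named above were all higher in TdTomato cells, by 0.47 (Mcm7, the lowest) to 5.04 (Nusap1, the highest). Leaving out MC221 or MC791 from the fit without a block leaves 1 TdTomato array at day 7. Its spread is then taken from the other groups. The change since day 0 itself differed between the populations for 19 members at day 1, 16 at day 4 and 3 at day 7, while 38.4%, 44.4% and 2.69% of all genes differed in this way.

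Among the G1 genes the D-type cyclins each had a course of their own. Ccnd1, cyclin D1, which couples growth signals to the cycle, gave 0.59, 0.63, 1.26 and 1.19 in EGFP cells at day 0 and 4.20, 4.33, 3.99 and 4.67 at day 7. In TdTomato cells Ccnd1 gave 0.73, 0.83, 1.45 and 1.06 at day 0, -0.69, 0.43, 0.29 and 0.23 at day 1, 1.1, 1.1, 2.36 and 1.74 at day 4 and 3.73 and 3.93 at day 7. Every array of day 7 lay above every array of day 0 in both populations, and the day 1 TdTomato arrays lay below them. Ccnd1 thus rose 10.4-fold in EGFP cells (3.38 ± 0.30, adjusted p = 3.5e-08) and 7.03-fold in TdTomato cells (2.81 ± 0.37, adjusted p = 6.8e-06) by day 7, after a fall of 1.94-fold at day 1 in TdTomato cells (adjusted p = 0.01; 0.061 without the day 1 array of MC125). At day 7 the difference between the populations, -0.47 ± 0.37, was not called (adjusted p = 0.45). Without MC221 the rises of Ccnd1 were 3.41 and 2.92. Beside them, mesangial sums of EGFP cells were 1.69 to 2.97 at day 0 and 2.77 to 3.22 at day 7 (1 of 10 genes called higher), and parietal sums were 0.55 to 1.89 and 1.66 to 2.42 (2 of 9). In TdTomato cells at day 7 these sums were 2.94 to 3.86 (4 of 10) and 3.08 to 3.48 (4 of 9). Of all genes 5.34% were called higher at day 7 in EGFP cells and 10.9% in TdTomato cells. The part of these markers in the rise of Ccnd1 was not tested. In EGFP cells at days 1 and 4 it was at 0.55, 1.11 and 1.36 and 1.59, 1.27, 2.45 and 1.33, not called.

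Ccnd2, cyclin D2, moved early and in TdTomato cells: it gave -2.66, -3.34, -2.25 and -2.70 at day 0, 0.29, -0.26, 1.27 and -0.31 at day 1, -1.98, -2.53, -1.32 and -1.14 at day 4 and -1.21 and -0.14 at day 7. The day 1 arrays lay above all day 0 arrays, a rise of 7.91-fold (2.98 ± 0.39, adjusted p = 7.2e-07). The day 4 value overlapped with day 0 (0.99 ± 0.39, adjusted p = 0.034), and this call was lost with the mouse as a random replicate block (adjusted p = 0.075), with normexp, with quantile normalization, and without the day 0 array of MC122, MC731 or MC753 or the day 4 array of MC822 or MC823. The rise at day 7 was 4.17-fold (adjusted p = 0.0038), and it was lost without MC791 (adjusted p = 0.12). EGFP arrays lay within -3.65 to -1.38 (means -2.69, -3.30, -2.95 and -2.18 at days 0, 1, 4 and 7), with no call. The change of Ccnd2 at day 1 differed between the populations by 3.60 ± 0.58 (adjusted p = 3e-05). Ccnd3, cyclin D3, had means of 5.02, 5.65, 4.23 and 4.68 in TdTomato cells and 4.99, 4.79, 5.16 and 5.17 in EGFP cells at days 0, 1, 4 and 7. It fell 1.73-fold in TdTomato cells at day 4 (adjusted p = 0.019; lost without day 0 MC122 or day 4 MC692), where no array overlapped with day 0, and it was 1.82-fold higher than in EGFP cells at day 1, with overlap (adjusted p = 0.021; lost with only the groups compared, or without any of MC125, MC541, MC542 and MC831).

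The kinase partners of the D cyclins split. Cdk6 gave -4.79, -3.75, -4.04 and -4.15 in EGFP cells at day 0 and -2.54, -2.26, -3.10 and -2.01 at day 7, and in TdTomato cells -3.94, -3.45, -4.21 and -4.34 at day 0, -2.76, -2.75, -2.20 and -2.42 at day 1, -4.22, -3.47, -5.49 and -4.25 at day 4 and -3.12 and -2.69 at day 7. It rose 3.26-fold in EGFP cells at day 7 (1.71 ± 0.33, adjusted p = 0.0012) and 2.73-fold in TdTomato cells at day 1 (1.45 ± 0.33, adjusted p = 0.00062; lost with normexp background correction), without overlap in either case. The TdTomato arrays of Cdk6 at day 7 were both above day 0, but the difference (1.08 ± 0.40) was not called (adjusted p = 0.062). Cdk6 was dim, and 3 of 4 day 4 TdTomato arrays were not well above background. Cdk4, the other kinase of this step, was called in no comparison: its means were 3.30, 3.52, 3.15 and 3.12 in TdTomato cells and 3.28, 3.31, 3.36 and 3.63 in EGFP cells at days 0, 1, 4 and 7, and its largest difference from day 0 was 0.34 ± 0.22 in EGFP cells at day 7.

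Cdk2, the kinase of cyclins E and A, had means of -1.61, -3.24, -2.32 and -1.97 in TdTomato cells and -1.67, -1.64, -1.45 and -1.40 in EGFP cells at days 0, 1, 4 and 7. Its day 1 TdTomato arrays (-3.81, -2.86, -2.93 and -3.36) lay below every day 0 array (-1.96, -1.42, -1.45 and -1.63), a fall of 3.09-fold (-1.63 ± 0.30, adjusted p = 6.3e-05). At day 4 the arrays overlapped (-0.71 ± 0.30, adjusted p = 0.047), and that call was lost with no filter, with only the groups compared, and when any of 16 single arrays was left out, with the highest adjusted p (0.19) without the TdTomato array of MC151. Ccne1, cyclin E1, was called nowhere, with arrays from -2.80 to 0.48 (means -1.62, -1.61, -1.12 and -0.67 at days 0, 1, 4 and 7) in EGFP cells and from -2.41 to 0.14 in TdTomato cells. The other cyclin E, Ccne2, was above background on 1 array, an EGFP array of day 1 (mouse MC541) at -2.67, while the other arrays lay between -7.82 and -5.79.

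E2f1, the activator of replication genes, gave 4.04, 3.15, 3.40 and 3.44 in TdTomato cells at day 0, 2.24, 2.25, 1.41 and 1.66 at day 1, 2.37, 1.55, 1.85 and 2.16 at day 4 and 3.18 and 2.62 at day 7. EGFP arrays of E2f1 gave 3.01 to 4.19 (means 3.39, 3.5, 3.49 and 3.31 at days 0, 1, 4 and 7). The day 1 and day 4 TdTomato arrays were all below those of day 0, which is a fall of 3.07-fold at day 1 (adjusted p = 3.4e-05) and 2.88-fold at day 4 (adjusted p = 8.6e-05). The change of E2f1 differed from that in EGFP cells at both days (-1.73 ± 0.42 and -1.62 ± 0.40, adjusted p = 0.0018 and 0.0025). Rb1 had means of 1.84, 2.55, 1.48 and 1.67 in TdTomato cells and 1.95, 2.10, 2.16 and 2.01 in EGFP cells at days 0, 1, 4 and 7: it rose 1.64-fold at day 1 in TdTomato cells (adjusted p = 7.3e-05), without overlap. At day 4 Rb1 was at -0.35 ± 0.13, close to the shift of all genes, with overlap (adjusted p = 0.026; lost with normexp, quantile normalization, only the groups compared, or without MC122 or MC753 of day 0 or MC151 or MC692 of day 4).

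Both inhibitors were lower in TdTomato cells. Cdkn1b gave 3.42, 2.98, 3.34 and 3.24 at day 0, 2.20, 2.01, 2.55 and 2.20 at day 1, 2.11, 1.67, 2.05 and 2.45 at day 4 and 2.5 and 2.08 at day 7. EGFP arrays of Cdkn1b gave 2.45 to 3.56 (means 3.17, 3.05, 3.27 and 2.77 at days 0, 1, 4 and 7). No later TdTomato array reached the day 0 range, and the falls were 2.0-fold at day 1, 2.26-fold at day 4 and 1.94-fold at day 7 (adjusted p = 0.00012, 2.4e-05 and 0.0066; the last is 0.13 without MC791). Cdkn1c had means of 9.22, 8.28, 8.73 and 9.23 in TdTomato cells and 9.02, 8.78, 9.17 and 9.04 in EGFP cells at days 0, 1, 4 and 7. Its day 1 TdTomato arrays (8.30, 8.40, 8.25 and 8.18) were all below day 0 (9.60, 9.13, 9.43 and 8.72), a fall of 1.91-fold (-0.94 ± 0.18, adjusted p = 0.00012). By day 4 the arrays of Cdkn1c overlapped with day 0 (-0.49 ± 0.18, adjusted p = 0.024; lost with quantile normalization, only the groups compared, or without MC122 or MC742 of day 0 or MC692 or MC823 of day 4), and at day 7 the difference was 0.01 ± 0.22. Podocyte markers fell in the same cells, 8 of 10 at day 1 and 9 of 10 at day 4 with Cdkn1c counted among them. Of all genes 27.9% were called lower at day 1 and 35.9% at day 4. The part of the podocyte markers in the fall of Cdkn1c was not tested.

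**Figure D2:**
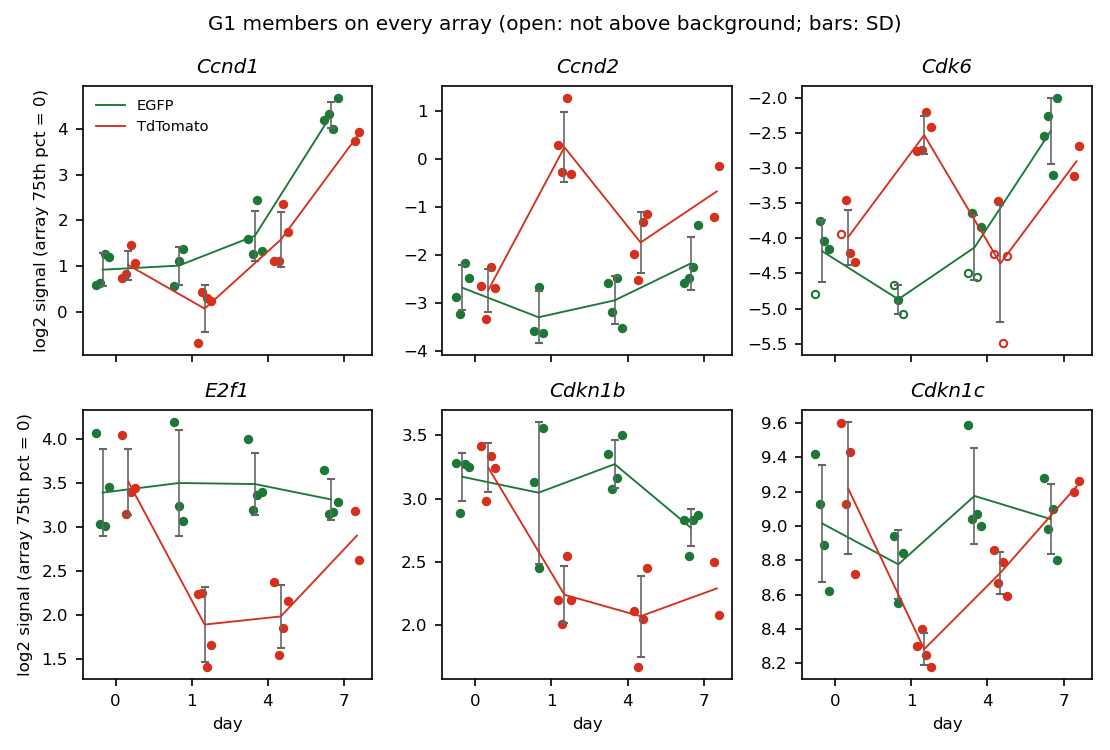
Log2 signal relative to the array's 75th percentile (y) by day (x) of 6 G1 members on every array, EGFP in green and TdTomato in red, with lines through group means and bars of 1 SD for groups of 3 or more; open points are not well above background. Ccnd1 is highest at day 7 in both populations, Ccnd2 is highest at day 1 in TdTomato cells, and E2f1 and Cdkn1b are lower in TdTomato cells at days 1 and 4.

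Of 31 other genes of G1 control, 28 were tested, and in TdTomato cells 9 rose and 13 fell at day 1, 8 and 9 at day 4, and 4 and 2 at day 7. Over all genes the shares called higher and lower were 23.8% and 27.9% at day 1, 21.4% and 35.9% at day 4, and 10.9% and 8.47% at day 7. In EGFP cells 0 were called at days 1 and 4, and at day 7 3 rose and 0 fell. Myc, a transcription factor that drives cell growth, was higher at days 1, 4 and 7 in TdTomato cells by 6.84, 5.57 and 4.34 (log2), and at day 7 in EGFP cells by 2.98. Cdkn1a (p21), the p53-induced inhibitor of cyclin-dependent kinases, was higher by 4.61 at day 4 and 4.01 at day 7 in TdTomato cells and by 1.71 at day 7 in EGFP cells. Cdkn2b (p15), an inhibitor of Cdk4 and Cdk6, was higher at day 7 by 2.45 in EGFP and 2.54 in TdTomato cells. So in TdTomato cells at days 4 and 7 Cdkn1b fell while Cdkn1a rose.

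Of the 8 replication genes, 4 fell and 2 rose at day 1 in TdTomato cells, where 27.9% of all genes fell and 23.8% rose. Of those that fell only Mcm4 was still called lower at day 4. The Mcm2 to Mcm7 proteins form the ring-shaped helicase that unwinds DNA, with 1 copy of each. Mcm3 gave -0.66, -0.77, -0.51 and -0.49 in TdTomato cells at day 0, -3.17, -2.54, -2.49 and -2.25 at day 1, -0.82, -0.93, 0.09 and -0.15 at day 4 and -0.10 and 0.34 at day 7. Mcm5 gave -0.64, -0.62, -0.51 and -0.34 at day 0, -2.88, -2.01, -2.56 and -2.88 at day 1, -1.04, -1.0, -0.55 and -0.71 at day 4 and -0.29 and -0.09 at day 7. For both genes every day 1 array lay below all others, a fall of 4.01-fold for Mcm3 (-2.0 ± 0.23, adjusted p = 9.2e-08) and 4.16-fold for Mcm5 (-2.06 ± 0.17, adjusted p = 7.4e-10). The EGFP arrays lay within -0.82 to 0.20 (means -0.61, -0.30, -0.41 and 0.00 at days 0, 1, 4 and 7) for Mcm3 and -0.52 to 0.17 (means -0.36, -0.30, -0.22 and -0.04 at days 0, 1, 4 and 7) for Mcm5. The change at day 1 differed between the populations by -2.32 ± 0.34 and -2.11 ± 0.25 (adjusted p = 9.5e-06 and 8.6e-07).

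Mcm4 had means of 1.99, 0.39, 1.33 and 1.46 in TdTomato cells and 2.03, 1.86, 1.83 and 1.68 in EGFP cells at days 0, 1, 4 and 7. It fell 3.04-fold at day 1 (adjusted p = 2e-07) and was still 1.58-fold lower at day 4 (adjusted p = 0.0054), without overlap with day 0 on either day. Mcm2, with means of -2.01, -2.63, -1.76 and -1.73 in TdTomato cells and -1.75, -1.69, -1.63 and -1.53 in EGFP cells, fell 1.54-fold at day 1 (adjusted p = 0.0026), again without overlap. Mcm7, a subunit of the same ring, went the opposite way. It had means of 1.71, 2.37, 2.38 and 1.97 in TdTomato cells and 1.79, 1.59, 1.71 and 1.45 in EGFP cells and rose 1.57-fold at day 1 (adjusted p = 8.5e-05) and 1.59-fold at day 4 (adjusted p = 8.4e-05), with all TdTomato arrays of both days above day 0. Mcm6, with means of 1.85, 2.33, 3.08 and 2.60 in TdTomato cells and 1.83, 2.29, 2.41 and 2.68 in EGFP cells, rose 2.34-fold in TdTomato cells at day 4 (adjusted p = 6.5e-05) and 1.79-fold in EGFP cells at day 7 (adjusted p = 0.018; lost with only the groups compared, or without day 0 MC742 or day 7 MC943). The arrays of these groups did not overlap with day 0, but the change of Mcm6 at day 4 was not called different between the populations (adjusted p = 0.094).

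Pcna, the sliding clamp of the replication fork, gave 4.14, 3.77, 4.10 and 3.99 in TdTomato cells at day 0 and 3.16, 3.01, 3.16 and 3.41 at day 4, with 3.89, 3.59, 3.61 and 3.69 at day 1 and 3.51 and 3.64 at day 7. EGFP arrays of Pcna gave 3.63 to 4.27 (means 3.96, 3.90, 3.96 and 3.97 at days 0, 1, 4 and 7). It fell 1.76-fold at day 4 (-0.82 ± 0.13, adjusted p = 1.8e-05), where the arrays did not overlap with day 0. Rrm2, the regulated subunit of ribonucleotide reductase, which makes the building blocks of DNA, did the reverse on the same arrays. It gave -4.67, -3.89, -4.13 and -3.81 at day 0, -1.70, -4.34, -3.18 and -1.39 at day 1, 0.52, -0.79, 0.45 and -0.25 at day 4 and -1.94 and -2.56 at day 7 in TdTomato cells. Over all EGFP arrays it gave -5.16 to -3.42 (means -4.22, -4.23, -4.15 and -3.95 at days 0, 1, 4 and 7). The day 4 arrays stood clear of all others, a rise of 17.2-fold (4.11 ± 0.48, adjusted p = 2e-07). The day 1 arrays of Rrm2 overlapped with day 0 (1.47 ± 0.48, adjusted p = 0.013), with 1 of 4 slides showing a difference below 0. This call was lost with normexp, in a fit of only the groups compared, and without the day 1 array of MC125 or MC831. The day 7 value (1.88 ± 0.59, adjusted p = 0.028) was lost without MC221 (adjusted p = 0.23), MC791 or the day 0 array of MC122, and with normexp or quantile normalization.

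**Figure D3:**
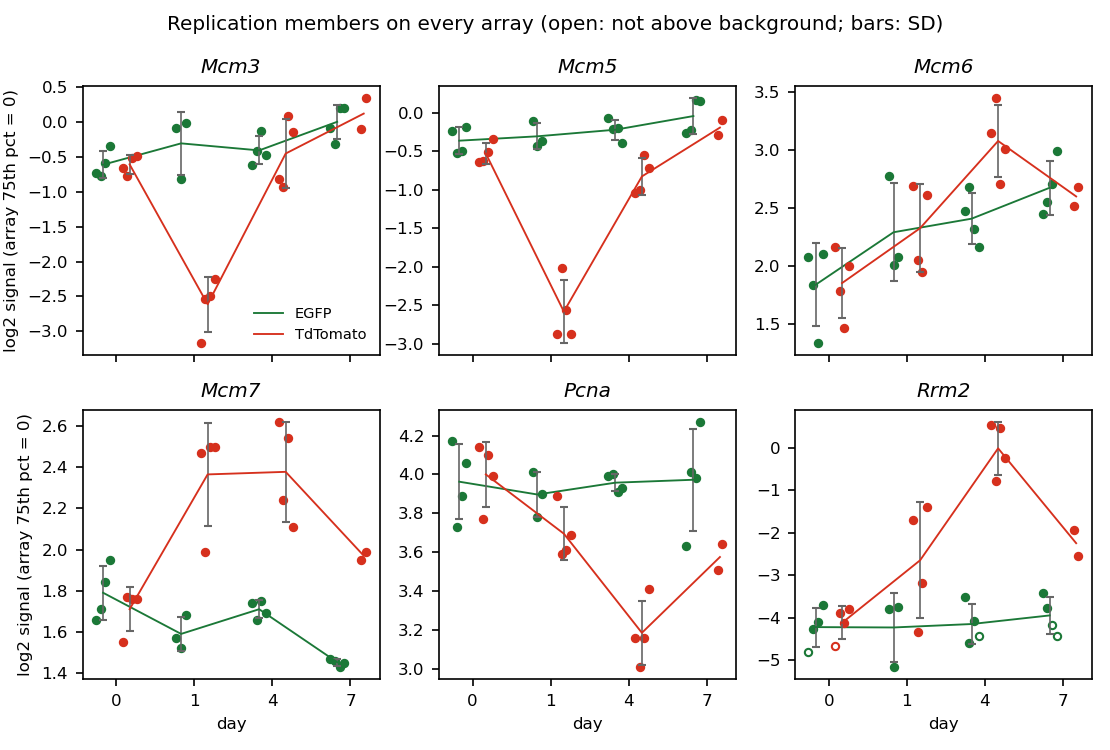
Log2 signal relative to the array's 75th percentile (y) by day (x) of 6 replication members on every array, EGFP in green and TdTomato in red, with lines through group means and bars of 1 SD for groups of 3 or more; open points are not well above background. At day 1 Mcm3 and Mcm5 dip and Mcm7 rises in TdTomato cells, and at day 4 Rrm2 is high while Pcna is low.

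Of 32 other replication genes, 30 were tested: 5 rose and 15 fell in TdTomato cells at day 1, 9 and 10 at day 4, and 4 and 0 at day 7. Of all genes, 23.8% and 27.9% were called on these sides at day 1, 21.4% and 35.9% at day 4, and 10.9% and 8.47% at day 7. In EGFP cells 3 rose and 0 fell at day 7, with 0 called at days 1 and 4. Their median difference at day 1 was -0.76, beside -0.13 for all genes. Among those with the largest changes, Mcm10, which helps to start replication, was higher by 4.26 at day 1 and 3.43 at day 4, and Tk1, the S-phase thymidine kinase, by 4.42 at day 4. Gmnn (geminin), which blocks renewed loading of the helicase, was at -2.89 (log2 difference), a fall, at day 1.

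The mitosis genes held the largest rises, and these were carried by a subset. Birc5 (survivin), a subunit of the chromosomal passenger complex that also inhibits cell death, gave -2.34, -2.69, -2.23 and -2.10 in TdTomato cells at day 0, 2.16, 0.59, 1.64 and 1.95 at day 1, 6.45, 6.18, 6.13 and 6.01 at day 4 and 1.33 and 1.81 at day 7. In EGFP cells Birc5 gave -1.99, -2.80, -2.56 and -1.89 at day 0, -2.63, -3.26 and -3.17 at day 1, -0.46, -0.06, -0.79 and -0.58 at day 4 and -0.80, -1.25, -0.94 and -1.46 at day 7. All 4 TdTomato arrays of day 4 lay within 6.01 to 6.45, above every other array. Birc5 rose 15.2-fold at day 1, 370.3-fold at day 4 and 15-fold at day 7 in TdTomato cells (3.92 ± 0.27, 8.53 ± 0.27 and 3.91 ± 0.33; adjusted p = 4.4e-11, 1.1e-16 and 9.5e-09). Within each of the 4 slides the rise at day 4 was 8.11 to 8.87.

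In EGFP cells Birc5 rose 3.58-fold at day 4 (1.84 ± 0.27, adjusted p = 0.00058) and 2.30-fold at day 7 (1.20 ± 0.27, adjusted p = 0.0055), without overlap with day 0. The day 7 call was lost when its probes were averaged (adjusted p = 0.35). On the linear scale the rise in EGFP cells at day 4 was 0.717% of the rise in TdTomato cells. Whether TdTomato cells in the EGFP gate took part was not tested. The other 2 probes of Birc5, dimmer, rose by 8.84 and 8.22 (log2) in TdTomato cells at day 4, beside 8.53 for the probe used. In EGFP cells at day 7 they differed from it (-0.03 and 0.66, beside 1.20).

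Nusap1, which bundles spindle microtubules, gave -5.34, -4.61, -4.85 and -4.38 in TdTomato cells at day 0, -4.32, -4.75, -4.37 and -4.23 at day 1, 1.88, 1.59, 1.64 and 1.37 at day 4 and 0.23 and 0.60 at day 7. It was not called at day 1 (0.37 ± 0.33, adjusted p = 0.37). It was 85.2-fold higher at day 4 (adjusted p = 1.6e-13) and 36.9-fold at day 7 (adjusted p = 2.1e-09; 5.39 on the log2 scale without MC221). EGFP arrays of Nusap1 lay within -5.45 to -2.53 (means -4.27, -4.56, -4.59 and -3.90 at days 0, 1, 4 and 7), the highest being MC221 at day 7. Kif20a, a kinesin of the late spindle and cleavage furrow, was called from day 1 on: it gave -4.04, -4.20, -3.52 and -3.45 at day 0, 0.09, -1.79, -0.37 and -0.29 at day 1, 2.0, 1.57, 1.90 and 0.89 at day 4 and -0.14 and 0.09 at day 7. Its rises were 9.27-fold, 42.0-fold and 13.7-fold (adjusted p = 1.5e-08, 2e-12 and 2.3e-07). EGFP arrays of Kif20a lay within -4.13 to -2.22 (means -3.52, -2.75, -3.32 and -3.22 at days 0, 1, 4 and 7).

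Bub1b (BubR1), a kinase of the spindle checkpoint, gave -4.52, -3.18, -3.01 and -3.02 in TdTomato cells at day 0, 0.03, 0.76, 2.52 and 1.78 at day 1, 1.54, 2.17, 3.08 and 2.39 at day 4 and -2.56 and -1.23 at day 7. EGFP arrays of Bub1b gave -4.11 to -2.47 (means -3.58, -3.38, -3.08 and -3.51 at days 0, 1, 4 and 7). It rose 26.1-fold at day 1 and 52.9-fold at day 4 (adjusted p = 1.1e-08 and 4.2e-10), and no array of either day overlapped with day 0. At day 7 the difference of Bub1b (1.54 ± 0.57) was not called (adjusted p = 0.059). Ccna2, cyclin A2 of S phase and early mitosis, gave -4.42, -4.63, -4.60 and -4.08 at day 0, -0.33, -1.04, 0.15 and -0.54 at day 1, 1.24, 1.30, 0.76 and -0.03 at day 4 and -1.70 and -2.10 at day 7. It rose 15.9-fold, 38.1-fold and 5.79-fold (adjusted p = 1.7e-07, 2.7e-09 and 0.0033; the last is 0.052 without MC221). EGFP arrays of Ccna2 ran from -5.28 to -1.75 (means -4.43, -4.39, -3.58 and -4.04 at days 0, 1, 4 and 7). Before the injection some TdTomato arrays of these genes were not well above background: Nusap1 was above it on 2 of 4 arrays, and Kif20a, Bub1b, Ccna2 and Rrm2 on 3 of 4, so their folds rest in part on values near background.

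The same genes stood apart between the populations at day 4. TdTomato cells exceeded EGFP cells of that day by 6.66 ± 0.27 (log2) for Birc5, 6.21 ± 0.33 for Nusap1, 5.37 ± 0.46 for Bub1b, 4.91 ± 0.32 for Kif20a and 4.40 ± 0.47 for Ccna2, each without overlap (adjusted p at most 6e-08). In EGFP cells of day 4 Nusap1 was above background on 1 of 4 arrays, Ccna2 on 2 and Kif20a on 3, so their differences rest in part on values near background, while Birc5 and Bub1b were above it on all 4. At day 7 Nusap1 and Ccna2 were above background on 2 of 4 EGFP arrays. At day 7 the differences were 2.68 for Birc5, 4.32 for Nusap1 and 3.19 for Kif20a (adjusted p at most 5.2e-06). For Ccna2 the day 7 difference was 2.14 (adjusted p = 0.023), and this was lost with the mouse as a fixed replicate block (adjusted p = 0.091), with normexp, quantile normalization or only the groups compared, and without either TdTomato array.

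The B cyclins and Plk1, which drive entry into mitosis, were not called at day 1 and were higher at day 4. Ccnb2 gave -2.18, -2.17, -2.14 and -2.05 in TdTomato cells at day 0, -1.45, -2.31, -2.04 and -1.62 at day 1, 1.04, 0.65, 0.53 and 0.51 at day 4 and -0.23 and -0.19 at day 7, a rise of 7.04-fold at day 4 (adjusted p = 1.8e-09) and 3.79-fold at day 7 (adjusted p = 7e-05). Plk1 gave -1.38, -1.47, -1.41 and -1.03 at day 0, -1.0, -1.62, -0.94 and -0.90 at day 1, 1.09, 0.76, 0.94 and 0.41 at day 4 and -0.31 and -0.73 at day 7, a rise of 4.34-fold at day 4 (adjusted p = 2.3e-07). Neither gene's day 4 arrays overlapped with day 0. EGFP arrays lay within -2.65 to -1.09 (means -2.27, -1.91, -1.74 and -1.78 at days 0, 1, 4 and 7) for Ccnb2 and -2.12 to -0.39 (means -1.55, -1.29, -1.16 and -1.66 at days 0, 1, 4 and 7) for Plk1. Ccnb1, with means of -3.24, -3.25, -1.88 and -2.56 in TdTomato cells and -3.20, -3.80, -3.76 and -4.26 in EGFP cells, rose 2.57-fold at day 4 (adjusted p = 0.0096), and this was lost with normexp or when its 2 probes past the filter were averaged. Tpx2, which activates Aurka on the spindle, had means of -4.13, -3.45, -2.87 and -3.35 in TdTomato cells and -4.18, -3.75, -4.40 and -3.45 in EGFP cells and rose 2.40-fold at day 4 (adjusted p = 0.0034), lost with normexp, quantile normalization or averaged probes.

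Other mitosis genes fell at day 1 in TdTomato cells. Cdc20, the activator of the anaphase-promoting complex, gave -1.17, -1.63, -1.41 and -1.35 at day 0, -2.84, -2.95, -2.96 and -2.86 at day 1, -0.65, -0.83, -0.57 and -0.97 at day 4 and -1.02 and -0.79 at day 7, so that it fell 2.85-fold (adjusted p = 5.7e-07) and was 1.56-fold above day 0 at day 4 (adjusted p = 0.0077), without overlap on either day. Its EGFP means were -1.49, -1.40, -1.49 and -1.55. Aurka, the spindle pole kinase, had means of -1.58, -2.45, -1.52 and -1.85 in TdTomato cells and -1.76, -1.38, -1.50 and -1.74 in EGFP cells and fell 1.83-fold at day 1 (adjusted p = 0.00021). Cenpe, a kinetochore motor, had means of -1.63, -2.89, -2.14 and -1.29 in TdTomato cells and -1.51, -0.92, -1.69 and -1.42 in EGFP cells and fell 2.39-fold at day 1 with overlap (adjusted p = 0.021). This call of Cenpe was lost when the day 0 array of MC753, or that of MC125 or MC542 at day 1, was left out, and in a fit of only the groups compared.

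Several genes that mark dividing cells were not called higher on any day in either population. Mki67, the common proliferation marker, gave -2.80, -3.20, -2.75 and -2.93 in TdTomato cells at day 0, -4.02, -3.67, -4.00 and -3.70 at day 1, -3.14, -3.32, -2.39 and -2.94 at day 4 and -2.25 and -2.59 at day 7. It was 1.90-fold lower at day 1 (adjusted p = 0.0097; lost with normexp), and its difference at day 4 was -0.03 ± 0.29 (adjusted p = 0.95). EGFP arrays of Mki67 ran from -4.56 to -2.42 (means -2.78, -2.89, -3.47 and -3.35 at days 0, 1, 4 and 7). Its second probe, above background on 10 arrays, differed from day 0 by 0.59 at day 4 and 2.25 at day 7 in TdTomato cells and by 0.89 at day 7 in EGFP cells, where the probe used gave -0.03, 0.50 and -0.57, so the probes disagree at day 7. Cdk1, the mitotic kinase itself, was above background on 4 arrays (MC122 of day 0 in both populations, and the EGFP arrays of MC151 at day 4 and MC221 at day 7, all on 1 slide). Its TdTomato arrays of day 4 were at -4.29, -5.86, -6.22 and -6.55, 0 of 4 above background, and its other 2 probes were above background on 0 arrays.

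Kif11, the kinesin that separates spindle poles, was above background on 7 arrays and called nowhere. Bub1 was above background on 0 of 29 arrays, Aurkb on 1 (TdTomato day 1), Cdc25c on 1 (TdTomato day 4), Cenpf on 1 (TdTomato day 4, mouse MC823, at -3.38) and Top2a on 2, of which 1 was TdTomato day 4 of the same mouse at -3.52 and 1 was EGFP day 7 of MC943 at -1.45. Top2a, the topoisomerase that untangles chromosomes, lay between -7.46 and -5.69 on the other arrays. A probe below background gives only an upper bound, so a change of these 6 genes and of Cdk1 under that bound was not detectable.

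**Figure D4:**
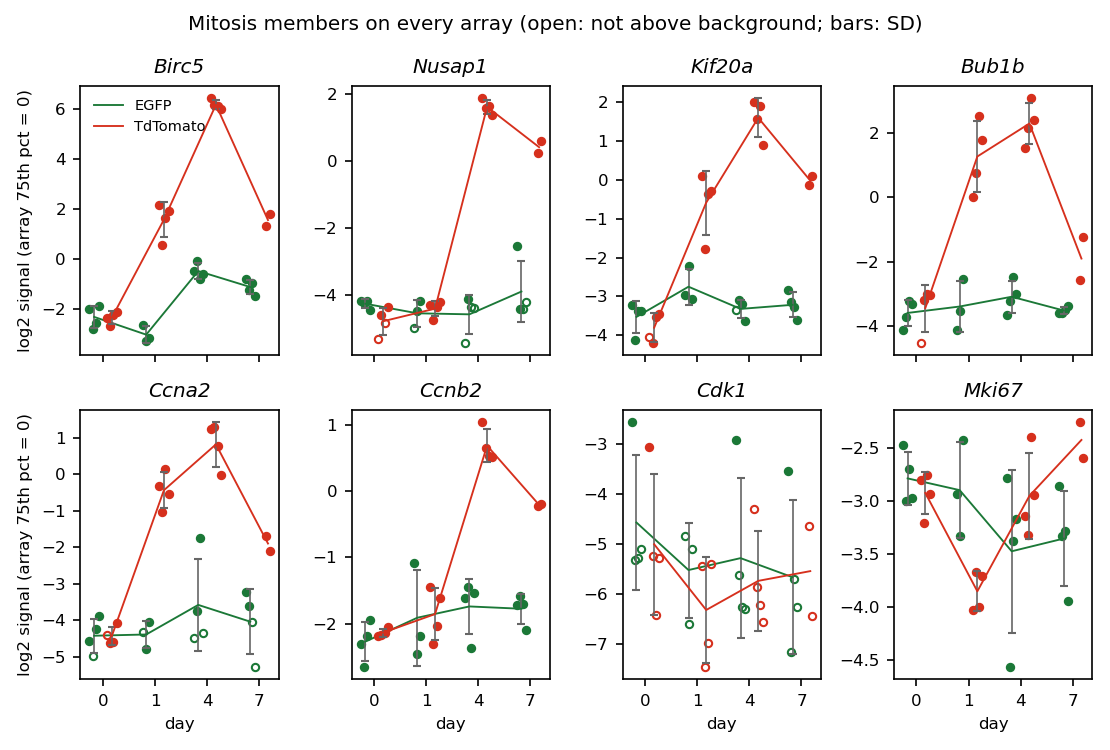
Log2 signal relative to the array's 75th percentile (y) by day (x) of 8 mitosis members on every array, EGFP in green and TdTomato in red, with lines through group means and bars of 1 SD for groups of 3 or more; open points are not well above background. The 4 TdTomato arrays of day 4 stand above the EGFP arrays for Birc5, Nusap1, Kif20a, Bub1b, Ccna2 and Ccnb2, and do not for Cdk1 or Mki67.

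The rise of these mitosis genes at day 4 was set against the marker sums of the same arrays. The TdTomato array of MC692 at day 4 had a log2 summed endothelial signal of 2.89, below all TdTomato arrays of day 0 (3.48 to 4.47). Its Birc5, Nusap1, Kif20a and Bub1b were at 6.18, 1.59, 1.57 and 2.17, within the range of the other TdTomato arrays of day 4. Its Ccna2 was at 1.30, above those other arrays (1.24, 0.76 and -0.03). On this array the myeloid (6.32), lymphocyte (3.49) and parietal (2.09) sums lay above all TdTomato arrays of day 0, which reached 5.82, 3.07 and 1.53. Its mesangial (2.37) and tubular (1.54) sums lay within the day 0 range. The part of endothelial cells, or of any of these other cells, in the rise was not tested. The array of MC823 had the highest endothelial and proximal tubule sums of that group, 6.02 and 7.55. Its Birc5, Nusap1, Kif20a, Bub1b and Ccna2 were at 6.01, 1.37, 0.89, 2.39 and -0.03. At day 7 both TdTomato arrays had endothelial sums (5.80 and 6.60) above all of day 0, and Cdh5, Flt1, Tek, Egfl7 and Eng were among the markers called higher. Their part in the day 7 values of the members was not tested. Parietal markers Prom1 and Cd44 were higher by 5.15 and 3.27 at day 4, and C1qa, a complement gene of macrophages, by 6.17. Of their lists, 4 of 9 parietal markers were higher and 1 lower, and 2 of 9 tested myeloid markers were higher and 0 lower. The list medians were 1.30 and 0.70, where 21.4% of all genes were higher and 35.9% lower. In the lymphocyte list the highest difference at day 4 was 8.96 and the median 0.46. The part of all these markers in the values of the members was not tested either.

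**Figure D5:**
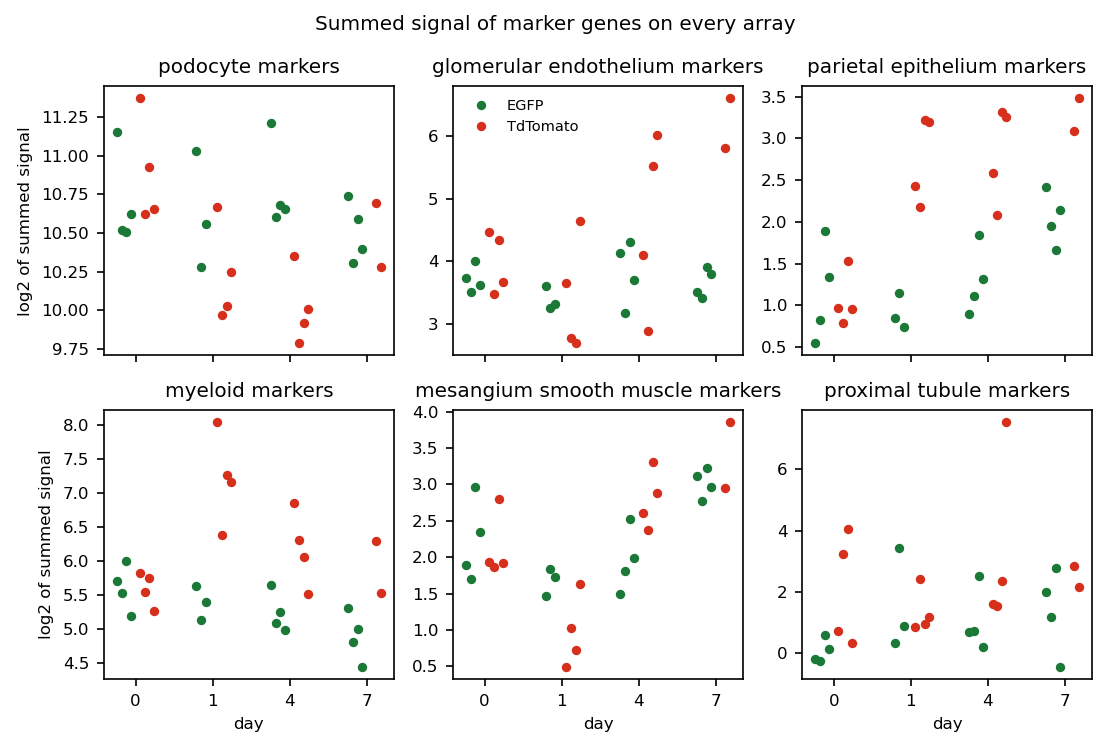
Log2 of the summed signal (y) of 6 marker lists by day (x) on every array, EGFP in green and TdTomato in red. Endothelial sums of TdTomato cells spread from 2.89 to 6.02 at day 4 and lie at 5.80 and 6.60 at day 7, while podocyte sums lie between 9.79 and 11.37 over all arrays.

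Of 45 other mitosis genes, 36 were tested: 5 rose and 14 fell in TdTomato cells at day 1, 13 and 6 at day 4, and 4 and 3 at day 7, with 0 called in EGFP cells on any day. Of all genes 23.8% rose and 27.9% fell in TdTomato cells at day 1, 21.4% and 35.9% at day 4, and 10.9% and 8.47% at day 7. Their median at day 4 was 0.66 beside -0.29 for all genes. Prc1, which bundles the central spindle, was higher by 4.52 at day 4 and 2.76 at day 7, and Ube2c, an enzyme of the anaphase-promoting complex, by 3.61 at day 4. Kif23, a motor of the cleavage furrow, was higher by 3.08 already at day 1, when Ect2, needed for the same furrow, was at -2.46 (log2 difference), a fall.

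Mitosis genes are known to share 2 promoter elements, the CHR element, which the DREAM and MuvB complexes bind, and the CCAAT box. RefSeq promoter windows (GRCm38.p6, 250 bases before to 50 after the gene start) were matched for 29 of the 40 members. They were searched on both strands for CCAAT, for the CHR element as TTTGAA or TTCGAA, and for an E2F-type site as TTTNNCGC; matches may overlap. Of 32851 windows of this length, 37.4% held CCAAT, 19.2% a CHR element, 5.17% the E2F-type site and 7.52% both CCAAT and CHR. Of the 29 members 23, 13, 7 and 13 did. Shown with matches in capitals are Birc5 and Nusap1, which rose most, Bub1b and Ccnb2, which rose with them, and Cdk1, Bub1 and Top2a, which were above background on 4, 0 and 2 of 29 arrays:

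Birc5 promoter, chr11:117848987-117849286, strand +: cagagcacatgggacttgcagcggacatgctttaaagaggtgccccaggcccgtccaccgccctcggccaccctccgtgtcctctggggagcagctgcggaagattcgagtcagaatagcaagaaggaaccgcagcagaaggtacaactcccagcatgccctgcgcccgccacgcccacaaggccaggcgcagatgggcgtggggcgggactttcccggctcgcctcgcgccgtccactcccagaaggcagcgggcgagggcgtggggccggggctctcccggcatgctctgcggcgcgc

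Nusap1 promoter, chr2:119618048-119618347, strand +: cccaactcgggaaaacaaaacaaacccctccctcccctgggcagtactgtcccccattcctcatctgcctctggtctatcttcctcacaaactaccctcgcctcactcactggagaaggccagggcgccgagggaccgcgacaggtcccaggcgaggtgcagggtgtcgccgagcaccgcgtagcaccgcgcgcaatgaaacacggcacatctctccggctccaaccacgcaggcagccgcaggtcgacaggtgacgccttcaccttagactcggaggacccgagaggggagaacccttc

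Bub1b promoter, chr2:118597961-118598260, strand +: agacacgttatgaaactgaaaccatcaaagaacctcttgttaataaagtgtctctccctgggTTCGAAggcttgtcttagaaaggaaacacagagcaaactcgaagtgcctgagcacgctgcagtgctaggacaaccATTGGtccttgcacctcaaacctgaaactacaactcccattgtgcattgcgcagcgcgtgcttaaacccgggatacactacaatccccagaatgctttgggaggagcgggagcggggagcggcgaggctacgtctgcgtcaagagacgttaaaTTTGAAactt

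Ccnb2 promoter, chr9:70421505-70421804, strand -: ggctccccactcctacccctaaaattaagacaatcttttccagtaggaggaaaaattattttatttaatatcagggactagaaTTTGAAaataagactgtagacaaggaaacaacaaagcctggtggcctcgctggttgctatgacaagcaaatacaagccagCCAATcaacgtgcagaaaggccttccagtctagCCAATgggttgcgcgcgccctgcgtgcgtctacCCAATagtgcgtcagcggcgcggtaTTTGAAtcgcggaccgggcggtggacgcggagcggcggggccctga

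Cdk1 promoter, chr10:69352863-69353162, strand -: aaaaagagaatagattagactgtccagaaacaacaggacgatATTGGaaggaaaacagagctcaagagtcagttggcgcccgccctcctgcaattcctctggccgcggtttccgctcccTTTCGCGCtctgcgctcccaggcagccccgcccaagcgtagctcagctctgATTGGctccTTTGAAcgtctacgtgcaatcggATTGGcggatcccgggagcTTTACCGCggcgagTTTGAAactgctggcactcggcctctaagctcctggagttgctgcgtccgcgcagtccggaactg

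Bub1 promoter, chr2:127831810-127832109, strand -: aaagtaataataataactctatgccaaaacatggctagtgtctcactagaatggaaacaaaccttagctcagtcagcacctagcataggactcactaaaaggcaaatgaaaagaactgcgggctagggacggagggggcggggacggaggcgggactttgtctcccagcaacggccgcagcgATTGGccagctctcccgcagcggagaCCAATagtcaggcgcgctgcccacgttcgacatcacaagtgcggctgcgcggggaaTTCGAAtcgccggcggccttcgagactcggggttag

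Top2a promoter, chr11:99024140-99024439, strand -: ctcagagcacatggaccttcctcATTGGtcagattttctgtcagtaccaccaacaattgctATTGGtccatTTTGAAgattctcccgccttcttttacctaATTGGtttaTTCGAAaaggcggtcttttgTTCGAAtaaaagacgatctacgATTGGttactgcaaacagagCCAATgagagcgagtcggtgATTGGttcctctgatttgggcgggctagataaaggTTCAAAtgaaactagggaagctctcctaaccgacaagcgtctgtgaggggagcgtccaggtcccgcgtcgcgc

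The windows of Birc5 and Nusap1 held none of the 3 motifs. Those of Bub1b and Ccnb2 held both CCAAT and CHR, and so did those of Cdk1, Bub1 and Top2a. Of the 15 mitosis members with a window, 11 held both elements, and 8 of these 11 were tested. Ccnb2, Plk1, Bub1b and Cdc20 were called higher in TdTomato cells at day 4, while Cdk1, Aurka, Kif11 and Mki67 were not. Bub1, Cenpf and Top2a did not pass the filter and were not tested. Of the 4 without both, all tested, Ccnb1, Birc5 and Nusap1 were called higher and Cenpe was not. A match is a stretch of letters and not a measured site.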

How the data were processed

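Per the labels, podocytes were sorted on a FACSAria, RNA was taken up in TRIzol LS and 0.1 µg of it was labelled with Cy3 by a low-input kit. Spot intensity was read and background-subtracted with Agilent Feature Extraction 11.5.1.1, per the submitters' processing notes and the file headers, and deposited as processed signal. A series matrix of log2 values for 39430 probes was deposited by the authors, with a scaling that no source used here states. Its column medians run from -3.18 to -2.33, 27 of 29 columns match their scanner files, and it served as an alternative.

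Log2 signal minus the 75th percentile of each array was computed without flagged outlier spots. Spots were averaged per probe, and 38187 of 55681 probes were well above background on at least 3 of 29 arrays. Through RefSeq accessions 26582 probes had 1 symbol, 0 several and 29099 none, and the latter were left out. The brightest probe per gene was fitted with limma 3.58.1 in R 4.3.3 as 8 group means on 29 arrays, with 48 missing values and Benjamini-Hochberg adjustment at 0.05. The fit was also run on simulated data with independent noise on each array and few changed genes. The real arrays had a consensus correlation within mice of 0.596 and many changed genes. That run therefore cannot check the fit under pairing or with many changes. Figures were drawn with matplotlib 3.10.9, and tables made in Python 3.11.15 with numpy 2.4.6 and pandas 2.3.3.

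The members and lists were chosen with earlier results of these data known. All 40 members are accounted for. Those called are given by group, and at most 6 other pathway genes are named per comparison from the largest changes. Numbers pair the samples because both populations came from the same animal: deviations of the arrays of 1 mouse correlated at 0.0415 to 0.6358 over the 13 mice, and the mouse was used as a replicate block in alternatives. Other alternatives were normexp background correction with offset 50 on median signals (mean signals are not in the files), quantile normalization, no filter, the authors' values, the mean of probes, only the groups compared, slide as a block, and each array left out. Added after seeing the data was the fit without mouse MC221. Every slide of 4 held arrays of several days.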

Additional observations from a re-analysis of the deposited data

Results flagged for a closer look

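In groups of 4 arrays, 14 of 204 sets of 1 gene and 1 group held a lone array far from the other 3, where chance gives about 1 in 20. In EGFP cells at day 4, mouse MC151 was high for Ccnd3 (5.6), Cdk4 (3.89) and Cdkn1c (9.59). Cdkn1b was low in MC731 at day 0 (2.89) and MC791 at day 7 (2.55), Kif20a was low in MC731 at day 0 (-4.13), Cdk1 was high in MC122 at day 0 (-2.55), and Nusap1 was high in MC221 at day 7 (-2.53), all in EGFP cells. In TdTomato cells of day 0, MC122 was apart for Mcm7 (1.55), Aurka (-1.44) and Bub1b (-4.52, not above background). At day 1, MC541 was low for Mcm7 (1.99) and Plk1 (-1.62), and at day 4, MC692 was low for Ccnd3 (3.86).

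The change since day 0 differed between TdTomato and EGFP cells by the interaction term of limma (log2, TdTomato minus EGFP) for these members. At day 1 it was higher in TdTomato cells for Birc5 (4.63), Bub1b (4.51), Ccna2 (3.96), Ccnd2 (3.60), Kif20a (2.44), Cdk6 (2.14), Mcm7 (0.86) and Rb1 (0.57). It was lower for Mcm3 (-2.32), Mcm5 (-2.11), Mcm4 (-1.43), Mcm2 (-0.68), Cenpe (-1.84), E2f1 (-1.73), Cdk2 (-1.65), Cdc20 (-1.60), Aurka (-1.26), Cdkn1b (-0.88) and Cdkn1c (-0.70). At day 4 it was higher for Nusap1 (6.73), Birc5 (6.69), Bub1b (5.22), Kif20a (5.19), Ccna2 (4.41), Rrm2 (4.04), Ccnb2 (2.29), Ccnb1 (1.91), Plk1 (1.72), Tpx2 (1.48) and Mcm7 (0.75), and lower for E2f1 (-1.62), Cdkn1b (-1.28), Pcna (-0.81), Cdkn1c (-0.65) and Rb1 (-0.56). At day 7 it was higher for Nusap1 (4.84), Kif20a (3.47) and Birc5 (2.71). The adjusted p of these differences ran from 2.3e-11 for Birc5 at day 4 to 0.044 for Cdkn1c at day 4.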

How the results depend on the processing

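Of 111 called differences of single members, 76 stayed called in every alternative that gave a value, 35 lost their call in at least 1 and 0 changed direction. The counts of members called at days 1 and 4 stayed within 1.5 times in all alternatives run, with 20 to 25 at day 1 and 18 to 22 at day 4 in TdTomato cells when 1 array was left out. Day 7, with 2 TdTomato arrays, moved most. EGFP cells at day 7 had 7 called members with slide as a block in place of 4, and TdTomato cells 14 in place of 9. TdTomato against EGFP cells at day 7 had 7 in the fit without a block, 15 with the mouse as a random replicate block and 12 with it fixed, 15 with slide as a block, 11 with the authors' values, 4 with only the groups compared, 4 without mouse MC221, and 4 to 9 when 1 array was left out. TdTomato cells at day 7 against day 0 had 6 to 12 when 1 array was left out. The paired fits ended the calls of Ccnd2 at day 4 (random) and of Ccna2 between populations at day 7 (fixed), and no other call. The members whose change differed between populations at day 7, 3 in the fit without a block, were 8 with the random and 5 with the fixed replicate block. That count was 5 with quantile normalization, 6 with slide as a block, and 3 to 5 when 1 array was left out, the 5 being without EGFP day 4 MC822. The share of all genes called in each alternative fit is not given here. A shift in the count of members therefore cannot be told from a shift over all genes. The causes of these shifts were not tested. Signal over background limits Cdk1, Kif11 and the 6 members that did not pass the filter.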
